A study of Mus musculus with 6 samples.

Results

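A set of 10 genes of the ADP-ribosylation machinery were followed in enteric glial cells (EGCs), which accompany the neurons of the gut, at rest and after exposure to lipopolysaccharide (LPS), a bacterial cell wall component. The members were chosen by gene symbol: Parp1, Parp2, Parp3, Parp8, Parp9, Parp10, Parp11, Parp12, Parp14 and Dtx3l. They make up 10 of the 46603 gene identifiers in the deposited count files, and all 10 passed the low-count filter. Parp1 and Parp2 were included as family members outside the group known to respond to interferon. The 6 libraries came from wild-type C57BL/6J cells grown as neurospheres (floating clusters of neural progenitors) from the entire gut of E14.5 embryos. In both groups the spheres were grown with EGF and FGF and the cells were then plated in serum, and no sorting for glia was described. No transgene or deletion was named. Of these, 3 came from untreated EGCs (control) and 3 from EGCs kept for 12 h with 100 ng/ml LPS. The labels gave a replicate number and did not say whether equal numbers mark separate litters or cultures, so p-values measure the spread between these samples, which may be technical.

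Poly(ADP-ribose) polymerases (PARPs) transfer ADP-ribose from NAD+ onto proteins and nucleic acids. PARP1 and PARP2 build chains of ADP-ribose at DNA breaks, whereas most of the other enzymes add single units. PARP9, PARP10, PARP11, PARP12 and PARP14 are widely known as products of interferon-stimulated genes, and PARP9 works in a complex with the ubiquitin ligase DTX3L. LPS is sensed by Toll-like receptor 4, which in many cell types leads to interferon production and to signaling through the interferon receptor.

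Total counts per library lay between 18775316 and 23664312, and the members held between 274 and 10860 counts each in a library. Levels are given as CPM, counts scaled to a library total of 1000000 after correction for composition. The limit of detection was set at 3 counts, or 0.124 to 0.167 CPM, and covers counting error only. Markers of more than 1 cell type were measured in every library. Summed over 8 glial markers, including Sox10 and S100b, the level was 286 to 404 CPM in control and 334 to 344 CPM in LPS. Within this sum S100b fell (log2 fold change -1.91, edgeR adjusted p = 0.0238), Fabp7 rose (1.29, edgeR adjusted p = 0.0122) and 6 markers were not called. Summed over 8 mesenchymal markers it was 15603 to 16295 CPM in control and 15124 to 15842 CPM in LPS. Of these, Dcn (log2 fold change 0.90, edgeR adjusted p = 0.0118) and Pdgfra (0.50, edgeR adjusted p = 0.0114) rose, and with the replicate number as a block Lum and Thy1 were also called lower (edgeR adjusted p = 0.00581 and 0.0209). The sum of 8 neuronal markers was 254 to 438 CPM in control and 270 to 423 CPM in LPS. Smooth muscle markers fell, 7 of 7 tested and all called, from a sum of 2290 to 2523 CPM to one of 640 to 911 CPM. Of all tested genes 9.09% were called higher and 6.71% lower by edgeR, and with the block 15.4% and 14.9%. Macrophage markers, described beside the members further on, were high in both libraries numbered 3. In such bulk libraries fewer cells of a type and less RNA per cell cannot be told apart.

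The member genes lie on 7 chromosomes, and 3 of them share a segment of chromosome 16 (GRCm38, GENCODE M21 gene models). These are Parp14 at chr16:35832874-35871544 on the minus strand, Dtx3l at chr16:35926511-35939151 on the minus strand and Parp9 at chr16:35938470-35972605 on the plus strand. Parp11 (chr6:127446840-127494261, plus) and Parp12 (chr6:39086410-39118349, minus) are both on chromosome 6. Parp10 is at chr15:76231174-76243441 (minus), Parp8 at chr13:116854820-117025537 (minus) and Parp3 at chr9:106470322-106476949 (minus). Parp1 is at chr1:180568924-180601254 (plus) and Parp2 at chr14:50807841-50821301 (plus). All 10 are protein coding, and counts covered their exons.

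To show what stretches of DNA precede family genes that were called and one that was not, the 190 bases before the start are printed for 4 genes, 5′ to 3′ on the strand of the gene. Sequences are from RefSeq on GRCm38.p6. Parp11, Parp12 and Zc3hav1, another family gene, rose after LPS, and Parp4 was not called in the comparison of all 6 libraries. Capitals mark the repeat found in interferon-stimulated response elements (the letters GAAA, 2 bases of any kind and GAAA again), and TTCNNNGAA, the core of a gamma-activated site, each searched on both strands. The stretches are chr6:127446650-127446839 (plus) for Parp11, chr6:39118350-39118539 (minus) for Parp12, chr6:38354604-38354793 (minus) for Zc3hav1 and chr14:56575429-56575618 (plus) for Parp4.
Parp11: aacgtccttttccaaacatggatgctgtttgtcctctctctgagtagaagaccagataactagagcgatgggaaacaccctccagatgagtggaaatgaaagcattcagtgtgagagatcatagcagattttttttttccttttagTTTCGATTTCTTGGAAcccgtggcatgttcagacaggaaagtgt
Parp12: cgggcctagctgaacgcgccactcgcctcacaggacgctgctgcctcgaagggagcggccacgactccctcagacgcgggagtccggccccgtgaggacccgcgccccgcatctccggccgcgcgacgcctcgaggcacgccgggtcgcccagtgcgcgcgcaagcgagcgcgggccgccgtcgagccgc
Zc3hav1: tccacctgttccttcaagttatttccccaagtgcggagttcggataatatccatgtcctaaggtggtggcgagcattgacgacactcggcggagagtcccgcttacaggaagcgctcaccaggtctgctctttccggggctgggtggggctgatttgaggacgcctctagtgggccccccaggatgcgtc
Parp4: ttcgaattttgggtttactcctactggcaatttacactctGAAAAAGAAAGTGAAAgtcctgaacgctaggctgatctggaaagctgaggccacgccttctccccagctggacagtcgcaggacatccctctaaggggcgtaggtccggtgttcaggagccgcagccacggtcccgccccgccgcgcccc

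In windows of 300 bases (250 before the start and 50 after it), the GAAA repeat was found in 1131 of 32851 RefSeq windows (3.44%) and TTCNNNGAA in 2726 (8.30%). Its longer form, with GAAA 3 times at the same spacing, was found in 38 windows (0.116%). A window was at hand for 7 of the 10 members, and for Parp9, Parp10 and Parp14 none was. Among these 7 members, Parp11 alone held the GAAA repeat, on the minus strand at chr6:127446796-127446805, between 44 and 35 bases before the start. It overlapped a TTCNNNGAA match at chr6:127446803-127446811, a motif that reads alike on both strands. The second Parp11 window, at another start of the gene, held neither, nor did the windows of Parp1, Parp2, Parp3, Parp8, Parp12 and Dtx3l. Of the other family genes with a window, Parp4 held the longer form at chr14:56575469-56575484, between 150 and 135 bases before the start, and Parp16 held TTCNNNGAA across its start. A match is a run of letters and not a shown binding site, and its absence says only that these letters are not in this window.

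To examine which members changed after LPS, the 6 libraries were compared with the edgeR quasi-likelihood test across 15226 genes. In all, 8 of the 10 members were higher in LPS at an adjusted p under 0.05 and none was lower. In the same test 9.09% of all tested genes were called higher and 6.71% lower. The 8 members are Parp3, Parp8, Parp9, Parp10, Parp11, Parp12, Parp14 and Dtx3l, and in each of them every LPS library lay above every control library, as it did for 19.3% of all tested genes. No member had every LPS library below every control library, which 19.4% of all tested genes had. The median log2 fold change was 2.66 over these 8 genes, 2.14 over all 10 and -0.02 over all tested genes. Parp1 and Parp2 were not called by this test, and neither was among the genes with an unadjusted p under 0.05. With the replicate number as a block, Parp1 was called lower, as given below, so that 1 member was lower (14.9% of all tested genes) and 8 were higher (15.4%), where 30.3% of all tested genes were called in either direction.

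**Figure D1:**
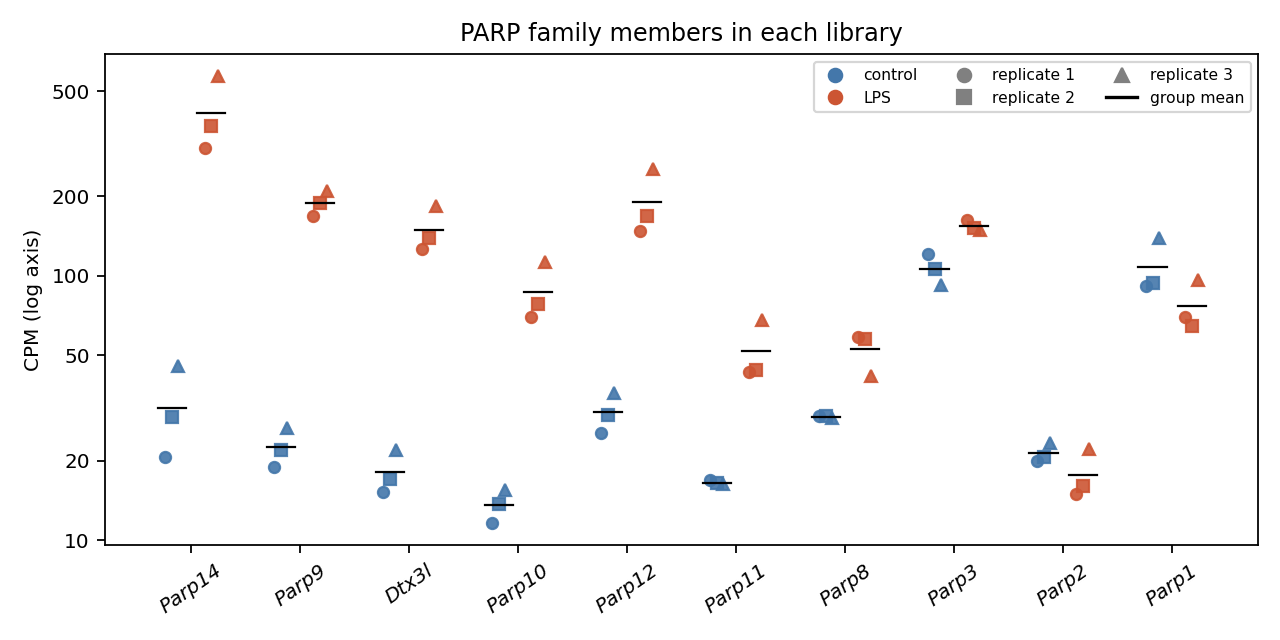
Level of each member in every library, in CPM on a log axis. Blue symbols are control and red symbols LPS, the shape gives the replicate number and the bar the mean of 3 libraries. The red symbols lie above the blue ones for 8 genes, and both colors overlap for Parp2 and Parp1.

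The largest change among the members was that of Parp14, an enzyme with ADP-ribose-binding macrodomains that is known as a cofactor of STAT6. Its level was 20.6, 29.1 and 45.4 CPM in control replicates 1 to 3 and 305.9, 369.2 and 568.4 CPM in LPS replicates 1 to 3. The groups were far apart, although within both groups the library numbered 3 was the highest. Means were 31.7 ± 12.6 CPM for control and 414.5 ± 137.0 CPM for LPS (SD, n = 3), a log2 fold change of 3.71 (SE 0.39, 95% interval 2.74 to 4.67, edgeR adjusted p = 0.00396). Among the 15226 genes this ranked 235 by log2 fold change. Taken by replicate number the LPS level was 14.9, 12.7 and 12.5 times the control level.

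Next, the complex of PARP9 and DTX3L was examined. Parp9, which encodes a macrodomain protein that reads ADP-ribose, was at 18.9, 22.0 and 26.5 CPM in control and at 169.0, 189.3 and 210.0 CPM in LPS. All 3 LPS libraries were far above the highest control library. Its mean went from 22.5 ± 3.84 to 189.4 ± 20.5 CPM, with a log2 fold change of 3.07 (SE 0.16, 95% interval 2.68 to 3.47, edgeR adjusted p = 0.0003605). Dtx3l, the ubiquitin ligase of the pair, was at 15.2, 17.0 and 21.9 CPM in control and at 126.2, 139.0 and 183.2 CPM in LPS. Its LPS libraries were likewise all above its control libraries. Its mean went from 18.1 ± 3.499 to 149.5 ± 29.9 CPM (log2 fold change 3.05, SE 0.21, 95% interval 2.53 to 3.56, edgeR adjusted p = 0.000987).

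Next, the proportion of Dtx3l to Parp9 was examined. The ratio of Dtx3l to Parp9 counts, which does not depend on library scaling, was 0.803, 0.775 and 0.827 in control and 0.747, 0.734 and 0.872 in LPS. The LPS values lay outside the control range, 2 below it and 1 above it. On the log2 scale the mean was -0.32 ± 0.05 in control and -0.35 ± 0.14 in LPS, a difference of -0.03, and with 3 libraries per group an exact permutation test cannot go below p = 0.1, so it could not have shown a change. The starts of these genes lie 0.681 kb apart, and 458 bp of their exons overlap on opposite strands, which is 9.40% of the Parp9 exons and 8.0% of the Dtx3l exons. The strand setting of the counting was not given in the sources used here, so reads from that stretch cannot be assigned to one of them with certainty.

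Among all other tested genes, Dtx3l had the profile closest to Parp9. Likeness was the root mean square distance over the 6 libraries between log2 CPM values, each centered on its control mean, and it was 0.0873 for Dtx3l. The next 5 genes, which are not members, were H2-T23 (0.0918), Samd9l (0.114), Mlkl (0.120), Birc3 (0.123) and Ube2l6 (0.136), with log2 fold changes between 3.02 and 3.25. Parp10 was at a distance of 0.330 with 37 genes closer, Parp12 at 0.364 with 46 closer and Parp14 at 0.530 with 117 closer. All of these values rest on the same 6 libraries, and genes with a like fold change are close by construction.

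Parp10 and Parp12, which encode enzymes that attach single ADP-ribose units, rose by similar amounts. Parp10 was at 11.6, 13.7 and 15.5 CPM in control and at 69.8, 78.5 and 113.1 CPM in LPS. On average it went from 13.6 ± 1.97 to 87.1 ± 22.9 CPM (log2 fold change 2.68, SE 0.22, 95% interval 2.13 to 3.23, edgeR adjusted p = 0.00191). Of its exons, 205 bp overlap those of Plec on the same strand, so a part of its counts may be uncertain. Parp12, a zinc finger member of the family, was at 25.5, 29.8 and 36.1 CPM in control and at 147.4, 168.5 and 253.2 CPM in LPS. On average it went from 30.5 ± 5.36 to 189.7 ± 56.0 CPM (log2 fold change 2.64, SE 0.25, 95% interval 2.02 to 3.25, edgeR adjusted p = 0.00277). For both genes LPS replicate 3 stood above the other LPS libraries, and no LPS library came near the control range.

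Parp11, which encodes another enzyme for single ADP-ribose units, showed a smaller increase. Its control values were 16.8, 16.4 and 16.2 CPM and its LPS values 43.1, 44.0 and 68.1 CPM. The control libraries were nearly equal, and LPS replicate 3 lay well above the other 2 LPS libraries. Its mean went from 16.5 ± 0.297 to 51.8 ± 14.2 CPM (log2 fold change 1.65, SE 0.20, 95% interval 1.16 to 2.14, edgeR adjusted p = 0.00614). By replicate number the LPS level was 2.56, 2.68 and 4.196 times the control level, and without both libraries numbered 3 the log2 fold change was 1.41.

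Parp8 and Parp3 had the smallest increases of the 8. Parp8 was at 29.5, 29.6 and 28.9 CPM in control and at 58.7, 57.6 and 41.7 CPM in LPS. Here LPS replicate 3 was the lowest LPS library, in contrast to Parp9, Parp10, Parp11, Parp12, Parp14 and Dtx3l. The mean changed from 29.3 ± 0.381 to 52.7 ± 9.50 CPM (log2 fold change 0.84, SE 0.14, 95% interval 0.49 to 1.199, edgeR adjusted p = 0.0173). Its call was lost when control replicate 1 (edgeR adjusted p = 0.0768), control replicate 2 (0.0882), LPS replicate 1 (0.0635) or LPS replicate 2 (0.0753) was left out.

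Parp3, which encodes a nuclear enzyme that acts at DNA double-strand breaks, was at 120.8, 106.3 and 92.4 CPM in control and at 163.2, 151.1 and 149.8 CPM in LPS. The groups did not overlap, and replicate 1 was the highest in each. Its mean went from 106.5 ± 14.2 to 154.7 ± 7.38 CPM (log2 fold change 0.54, SE 0.11, 95% interval 0.26 to 0.82, edgeR adjusted p = 0.0304). Its call was lost without control replicate 2 (edgeR adjusted p = 0.123), LPS replicate 1 (0.102) or LPS replicate 2 (0.100), and with upper-quartile factors (0.0733) or library size alone (0.0955).

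The DNA-break enzymes Parp1 and Parp2 did not pass the test. Parp1 was at 91.2, 94.2 and 138.6 CPM in control and at 70.0, 64.7 and 96.5 CPM in LPS. The groups overlapped, because LPS replicate 3 exceeded control replicates 1 and 2. The means were 108.0 ± 26.5 and 77.1 ± 17.0 CPM (log2 fold change -0.49, SE 0.23, 95% interval -1.04 to 0.07, edgeR adjusted p = 0.202). Within each replicate number the LPS level was the lower one, at 0.768, 0.687 and 0.696 times control. With the replicate number as a block the log2 fold change was -0.48 (95% interval -0.64 to -0.32, edgeR adjusted p = 0.00932), which is a call. It was called as well without both libraries numbered 3 (-0.44, edgeR adjusted p = 0.00206), a fit of 2 against 2 libraries in which 20.4% of all tested genes were called lower.

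Parp2 was at 19.9, 20.7 and 23.4 CPM in control and at 14.9, 16.0 and 22.1 CPM in LPS. LPS replicates 1 and 2 were below the control range and LPS replicate 3 was inside it. The log2 fold change was -0.27 (SE 0.17, 95% interval -0.70 to 0.15, edgeR adjusted p = 0.339), and with the block the adjusted p of edgeR was 0.0977. Parp2 was called when LPS replicate 3 was left out (log2 fold change -0.47, edgeR adjusted p = 0.0435) and without both libraries numbered 3 (-0.37, edgeR adjusted p = 0.0160), the same fit as above. The ratio of Parp14 to Parp1 counts is free of library scaling. It sets the member with the highest log2 fold change against the one with the lowest, and so describes this pair and not the family. It was 0.225, 0.309 and 0.328 in control and 4.37, 5.71 and 5.89 in LPS, a log2 difference of 4.22 (exact permutation test, two-sided, p = 0.1, the smallest that 3 against 3 libraries can give).

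**Figure D2:**
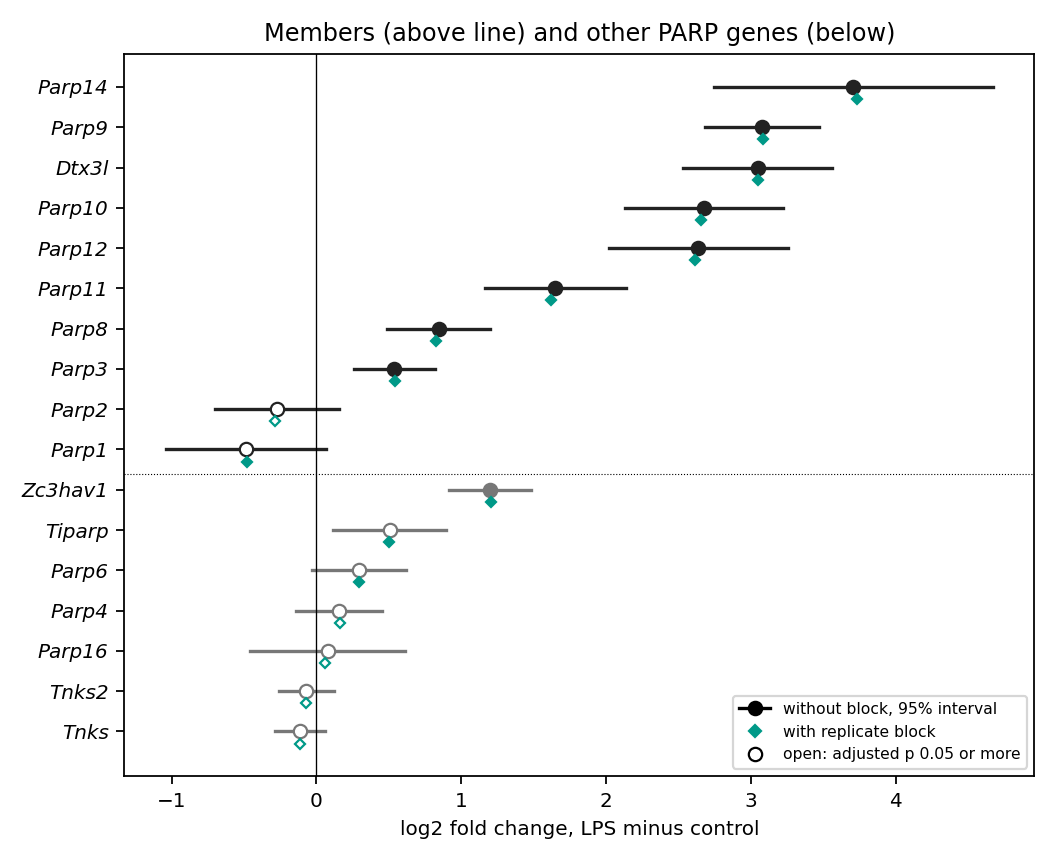
Log2 fold change (LPS minus control) with its 95% interval from edgeR, for the 10 members above the line and 7 other PARP family genes under it. Green diamonds give the value with the replicate block, and filled symbols were called at an adjusted p under 0.05. Parp14 has the largest change at 3.71, and the intervals of Parp1 and Parp2 include 0.

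Levels can be set side by side only per length, so CPM were divided by the kilobases of annotated exon. In the control libraries the order was Parp3 (28.8 CPM per kb), Parp1 (20.4), Parp12 (7.62), Parp2 (5.88), Parp9 (4.61), Parp14 (3.41), Parp8 (3.30), Parp10 (3.18), Dtx3l (3.15) and Parp11 (2.35). Ranges over the 3 libraries were apart between the neighbors Parp1 and Parp12, Parp2 and Parp9, and Dtx3l and Parp11, and they overlapped between all other neighbors in this order. In these control libraries, therefore, Parp3 and Parp1 stood above the other 8 members. As every library held markers of several cell types, the levels cannot be assigned to glia.

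In LPS the order was Parp12 (47.5 CPM per kb), Parp14 (44.5), Parp3 (41.8), Parp9 (38.9), Dtx3l (26.1), Parp10 (20.4), Parp1 (14.6), Parp11 (7.37), Parp8 (5.93) and Parp2 (4.87). Neighbors were apart between Parp9 and Dtx3l and between Parp1 and Parp11, and the first 4 genes could not be ordered beyond their spread. By this measure Parp14 went from place 6 to place 2, and Parp1 from place 2 to place 7. The control order depended on the length used. With the length of the longest transcript in place of all exons, Parp14 was at place 8, Parp8 moved from place 7 to 5, Parp11 from place 10 to 7 and Parp12 from place 3 to 4, while Parp3 and Parp1 kept places 1 and 2. In LPS, Parp12, Parp14 and Parp1 kept places 1, 2 and 7, Parp3 and Parp9 changed places with each other, and so did Parp11 and Parp8.

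**Figure D3:**
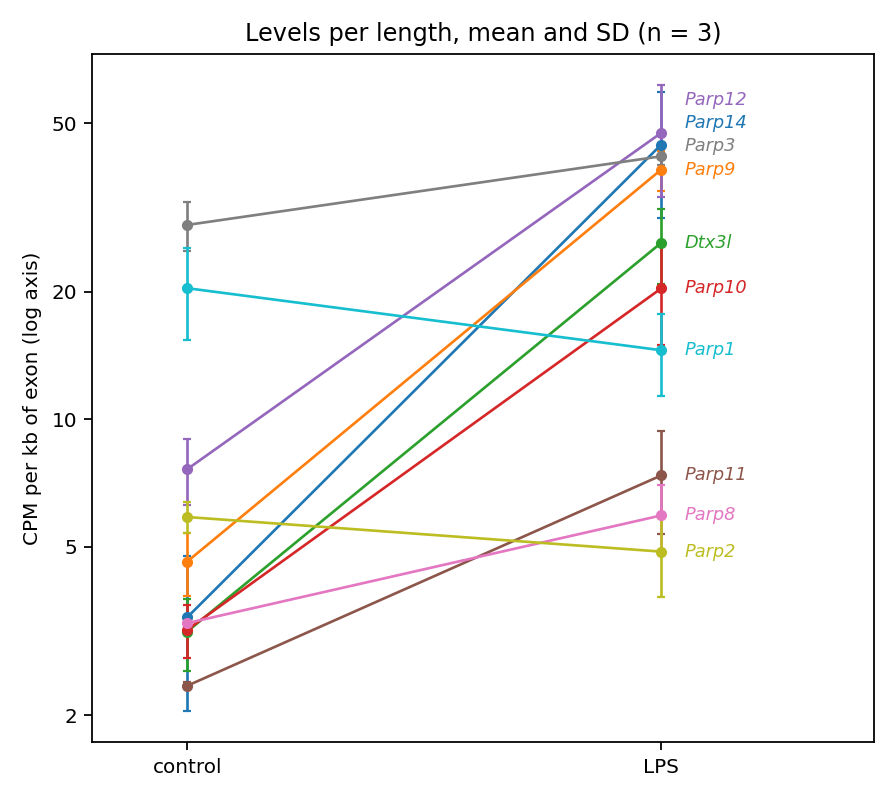
Mean level per kilobase of exon in control and LPS for the 10 members, with the SD over 3 libraries, on a log axis. Parp12, Parp14, Parp9, Dtx3l and Parp10 climb past Parp1, whose line falls from 20.4 to 14.6 CPM per kb.

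To see how far the changes on chromosome 16 extend, all genes with a start within 200 kb of that of Dtx3l were read from the same fit. Of these genes, 10 were tested. Between Parp14 and Parp9 no other tested gene starts. Kpna1, which encodes an importin and starts 39.6 kb from Dtx3l beyond Parp9, was at 89.7, 91.3 and 106.8 CPM in control and at 102.1, 102.8 and 100.8 CPM in LPS. Its LPS values lay inside the control range (log2 fold change 0.09, edgeR adjusted p = 0.549), but without both libraries numbered 3 it was called higher (0.20, edgeR adjusted p = 0.0222). Ccdc58 at 132.5 kb was higher in every LPS library and was not called (log2 fold change 0.57, edgeR adjusted p = 0.0515, with the block 0.0218). Gm15564 at 44.1 kb had a log2 fold change of 0.44 (edgeR adjusted p = 0.137, with the block 0.0173).

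Fam162a, which starts 132.4 kb from Dtx3l, rose from 44.8, 49.4 and 32.5 CPM to 299.4, 321.1 and 89.6 CPM (log2 fold change 2.49, SE 0.50, edgeR adjusted p = 0.0273). Its LPS libraries differed from each other more than those of Parp14, with replicate 3 the lowest. Wdr5b at 102.0 kb (-0.80, edgeR adjusted p = 0.0452) and Dirc2 at -169.8 kb (-0.57, edgeR adjusted p = 0.0374) were called lower, and Hspbap1 at -168.8 kb was not called (-0.21, edgeR adjusted p = 0.480). The calls of Fam162a, Wdr5b and Dirc2 were each lost without 5 of the 6 libraries in turn, at edgeR adjusted p of 0.0666 to 0.108, 0.0852 to 0.155 and 0.0533 to 0.149. They were kept without LPS replicate 3 for Fam162a and Wdr5b and without control replicate 3 for Dirc2. Without a low-count filter Wdr5b was not called either (edgeR adjusted p = 0.0687).

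**Figure D4:**
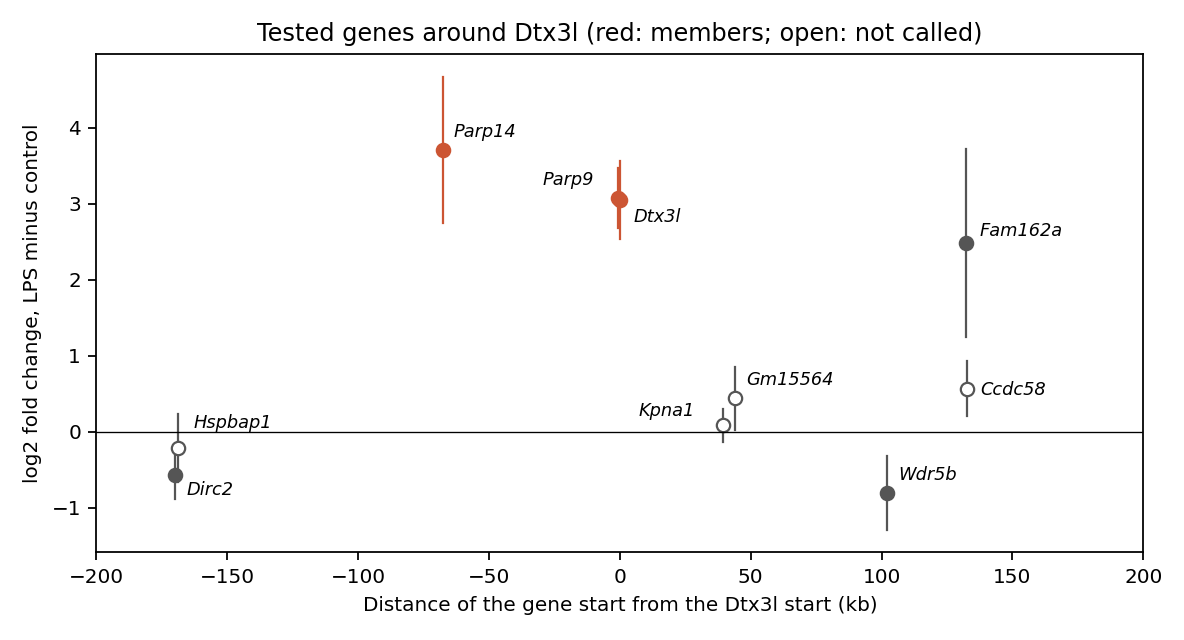
Log2 fold change with its 95% interval against the distance of each gene's start from that of Dtx3l, in kb, for the tested genes within 200 kb. Members are red and open circles were not called. The 3 members stand between 3.05 and 3.71, and Kpna1, at 39.6 kb, is near 0.

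The rest of the PARP family was read from the same fit. Of 7 other family genes, all tested, 1 was called higher and none lower, where 9.09% and 6.71% of all tested genes were, with 2 at an unadjusted p under 0.05 (both higher) and a median log2 fold change of 0.16. The called gene was Zc3hav1 (chr6:38305286-38354603, minus), which encodes an antiviral protein that binds viral RNA. It was at 82.8, 94.8 and 108.9 CPM in control and at 211.0, 216.9 and 229.3 CPM in LPS (log2 fold change 1.198, SE 0.12, edgeR adjusted p = 0.00292). Tiparp, a target of the aryl hydrocarbon receptor, was at 0.51 (edgeR adjusted p = 0.0849) and Parp6 at 0.30 (0.189), and both were called with the block (0.0206 and 0.0453). Parp4 was at 0.16 (edgeR adjusted p = 0.418, and called without both libraries numbered 3 at 0.23, adjusted p = 0.0386), Parp16 at 0.08 (0.843), and the tankyrases Tnks and Tnks2 at -0.11 (0.326) and -0.07 (0.590). With DESeq2 2 of the 7 genes were called, where 3752 of all 15226 tested genes were.

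Next, genes that take ADP-ribose off again were examined. None of the 9 tested was called by edgeR, where 9.09% of all tested genes were called higher and 6.71% lower. At an unadjusted p under 0.05 there were 4 (2 higher and 2 lower), where 2453 of all 15226 tested genes were higher and 2439 lower. By limma-voom 0 of the 9 were called (2171 of all tested genes) and by DESeq2 2 (3752 of all tested genes). Adprhl1 did not pass the filter. The median log2 fold change was -0.06. Macrod1, which removes single ADP-ribose units, had the largest one at 1.14 (edgeR adjusted p = 0.0821), from 6.02, 6.82 and 6.41 CPM to 17.6, 17.7 and 7.22 CPM. It is singled out here after its values were seen.

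PARPs consume NAD+, and of 17 genes of NAD supply and use 5 were called higher and none lower (9.09% and 6.71% of all tested genes), with a median log2 fold change of 0.28. At an unadjusted p under 0.05, 6 were higher and 2 lower, and with the block 7 were called higher and 1 lower (15.4% and 14.9% of all tested genes). The sixth was Cd38, which encodes a major enzyme that consumes NAD+, at 33.7, 41.7 and 79.4 CPM in control and 103.6, 129.9 and 386.1 CPM in LPS. Its log2 fold change was 2.0 (edgeR adjusted p = 0.0799, with the block 0.00366), and it is named here after its values were seen. Nampt, the rate-limiting enzyme of NAD+ salvage, went from 79.5, 82.4 and 114.0 CPM to 249.5, 299.0 and 303.9 CPM (log2 fold change 1.63, edgeR adjusted p = 0.00391). Bst1, an enzyme at the cell surface that cleaves NAD+, went from 3.31, 5.002 and 5.74 CPM to 32.8, 38.9 and 27.8 CPM (log2 fold change 2.82, edgeR adjusted p = 0.00225). In both genes the groups were well apart.

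Nadk, which turns NAD+ into NADP+, changed by 1.01 on the log2 scale (edgeR adjusted p = 0.00225). Nmnat2, an enzyme of NAD+ synthesis, changed by 0.62 (0.0393) and Sirt6, a deacylase that uses NAD+, by 0.59 (0.0189). The call of Nmnat2 was lost without any one of the 6 libraries (edgeR adjusted p 0.0557 to 0.139), and with upper-quartile factors (0.0568), library size alone (0.0675) or no filter (0.0880), and that of Sirt6 without control replicate 1 or 2 or LPS replicate 1 or 2 (0.0574 to 0.0985). Of 12 Deltex relatives of Dtx3l and PARP cofactors 1 was called higher and none lower, a share near the 9.09% of all tested genes, with 2 at an unadjusted p under 0.05 (both higher) and a median of -0.05. It was Rnf114, a ubiquitin ligase, at 50.1, 51.6 and 57.4 CPM in control and 98.4, 106.7 and 162.0 CPM in LPS (log2 fold change 1.21, edgeR adjusted p = 0.0168). Its call was lost without control replicate 1 (edgeR adjusted p = 0.0762), control replicate 2 (0.0878) or LPS replicate 2 (0.0520).

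Signaling genes that act upstream of interferon-stimulated genes were read from the same fit. Of 7 tested genes of this list, 6 were called higher, where 9.09% of all tested genes were, and the median log2 fold change was 2.07. The gene not called was Ifnar1 (0.54, edgeR adjusted p = 0.132), and with the block it was called as well (0.005985), so that all 7 were higher, where 15.4% of all tested genes were. Ifnb1 did not pass the filter. Stat2, a transcription factor of the interferon response, was at 49.2, 44.4 and 56.3 CPM in control and at 318.2, 330.0 and 533.6 CPM in LPS (log2 fold change 2.98, edgeR adjusted p = 0.00179). Irf9, another such factor, had a log2 fold change of 2.07 (edgeR adjusted p = 0.000157). Among the LPS libraries Stat2 was highest in replicate 3, as were the 8 members other than Parp3 and Parp8, whereas Irf9 was at 118.5, 119.8 and 119.7 CPM in the 3 LPS libraries. Irf1, at 85.9, 94.3 and 78.8 CPM in LPS, and Ifnar2, at 106.8, 99.5 and 94.5 CPM, were lowest in LPS replicate 3. Their log2 fold changes were 1.99 (edgeR adjusted p = 0.00144) and 1.06 (0.00834), and the largest of the list was that of Irf7 at 7.13 (0.000418).

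Macrophage markers moved with the replicate number, and their values are given here beside the members. Summed over 12 markers, including Adgre1, Ptprc and Csf1r, the level was 3889, 5013 and 11909 CPM in control replicates 1 to 3 and 4040, 5248 and 19710 CPM in LPS replicates 1 to 3. All 12 markers were highest in replicate 3 of both groups. None was at 0 in a library, and Cx3cr1 was near the floor in LPS replicates 1 and 2 (0.198 and 0.167 CPM). Of the 12 markers 1 was called higher and 11 were not called, where 9.09% of all tested genes were called higher and 6.71% lower. With the block 5 were higher and 3 lower, where 15.4% and 14.9% of all tested genes were.

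Likewise, 7 of the 10 members were highest in replicate 3 of both groups, namely Parp1, Parp2, Parp9, Parp10, Parp12, Parp14 and Dtx3l, against 29.4% of all tested genes. The part of macrophage content in these differences between replicates was not tested. The marker sum was close between control and LPS in replicates 1 and 2, but Lyz2 made up most of it and single markers went opposite ways. In replicates 1 and 2 the LPS level was 5.99 and 5.50 times control for Adgre1 and 7.84 and 6.03 times for Cd14, but 0.0472 and 0.0313 times for Mrc1 and 0.0630 and 0.0216 times for Cx3cr1. The part of these marker changes in the changes of the members was not tested. Without both libraries numbered 3 the log2 fold changes were 3.79 for Parp14, 3.15 for Parp9, 3.07 for Dtx3l, 2.57 for Parp10, 2.54 for Parp12, 1.41 for Parp11, 1.00 for Parp8 and 0.49 for Parp3, and all 8 were called by edgeR with 2 libraries per group, a fit that called 22.6% of all tested genes higher.

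**Figure D5:**
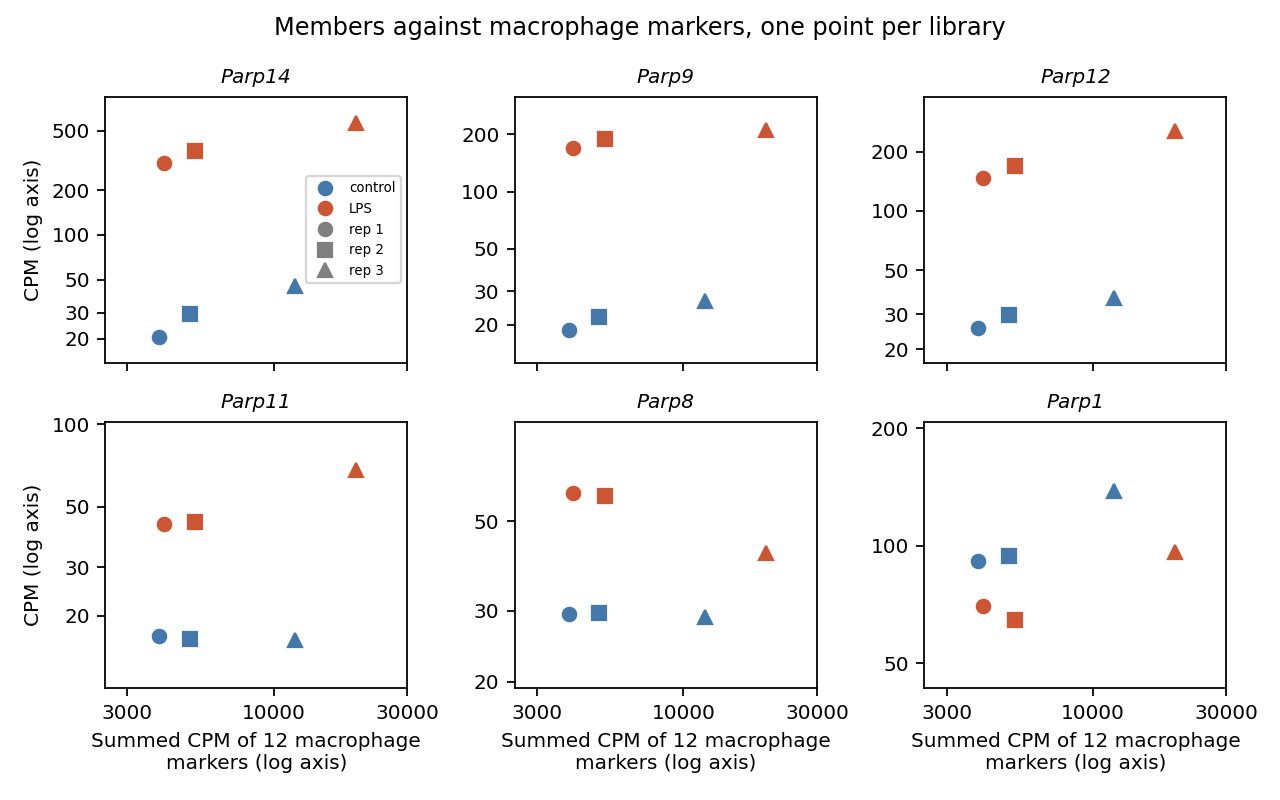
Level of 6 members (CPM, log axis) against the summed level of 12 macrophage markers (CPM, log axis), 1 point per library, with colors for the groups and shapes for the replicate numbers. For replicates 1 and 2, at the lower sums, the red LPS points lie far above the blue control points for Parp14, Parp9 and Parp12, and below them for Parp1.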

How the data were processed

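Poly(A) libraries were prepared with a stranded kit per the sample labels, whereas the series text names the kit without that word. The authors deposited raw counts per gene, 1 file per library. Per the labels, cutadapt 1.15, Bowtie2 2.3.3.1, STAR 2.5.2b, SAMtools 1.5 and featureCounts 1.5.3 were used with GRCm38. The strand setting of the counting and the treatment of reads with several alignments are not given in the sources used here. A deposited table of the whole series was not used here. No pair of libraries held identical counts.

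Counts were filtered with filterByExpr (minimum count 10, minimum total 15), scaled with TMM factors (0.918 to 1.08) and tested with the quasi-likelihood F-test of edgeR 4.0.16 (R 4.3.3), two-sided, with group as the single term. P-values were adjusted by Benjamini-Hochberg over 15226 genes, and a call needed an adjusted p under 0.05. The test was checked on simulated data. The SE is the absolute log2 fold change divided by the square root of F. Of the 46603 identifiers, 46005 were found in GENCODE M21.

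The labels do not explain the replicate numbers, so pairing was judged on the libraries themselves. The correlation across genes between a control and an LPS library of one number, each taken as the difference from its group mean, was 0.513, 0.334 and 0.613, all over the limit of 0.1, so the block fit is given where it changes a call.

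The members and the gene lists were chosen with earlier results of these data known. The text names all members, the called genes of the lists (at most 6 per list), all genes of the other PARP family list, the tested genes within 200 kb of Dtx3l and the 5 profiles closest to Parp9. Genes of interferon signaling are named outside this rule and with their values known. Some genes that entered the counts and sums are not reported here by themselves. Marker lists are described by counts and sums, and the single markers given with values were chosen after their values were seen. Alternatives were other scaling factors, other filters, DESeq2 1.42.0, limma-voom (limma 3.58.1), the replicate block, each library left out in turn and both libraries numbered 3 left out.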

Additional observations from a re-analysis of the deposited data

How the results depend on the processing

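Over 15 alternatives for each of the 10 members, 137 of 150 values kept their direction and their side of the threshold, 9 lost the call, 4 gained it and none changed direction. The 9 losses were those of Parp3 and Parp8 and the 4 gains those of Parp1 and Parp2. Parp9, Parp10, Parp11, Parp12, Parp14 and Dtx3l were called by all 15, at edgeR adjusted p of at most 0.0446 (Parp11 without control replicate 2). Members called higher numbered 6 to 8 when each library was left out in turn, the lowest number arising without control replicate 2 and without either LPS replicate 1 or 2. The number of genes called, 2406, was 3752 with DESeq2, 4616 with the replicate block, 6657 without both libraries numbered 3 and between 491 (without control replicate 2) and 3390 (without LPS replicate 3) when each library was left out, with 664 without control replicate 1 and 843 and 685 without LPS replicates 1 and 2. The cause was not tested. For the other PARP family genes 1 call became 2 with DESeq2, 3 with the replicate block and 3 without both libraries numbered 3. For the ADP-ribose removal genes 0 became 1 with upper-quartile factors, 2 with library size alone, 2 with DESeq2, 3 without both libraries numbered 3, and 0 to 1 when each library was left out. For the NAD genes 5 became 8 with the replicate block, 11 without both libraries numbered 3, and 3 (without control replicate 1 or 2 or LPS replicate 1 or 2) to 7 when each library was left out. For the Deltex and cofactor genes 1 became 2 with DESeq2, 2 with the replicate block, 3 without both libraries numbered 3, and 0 (without control replicate 1 or 2 or LPS replicate 2) to 2 when each library was left out. Paired by replicate number, the replicate block changed no call of a member other than that of Parp1. Of the called genes 57.5% were higher, and with upper-quartile factors this was 39.8% and with library size alone 32.4%, with medians over all genes of -0.12 and -0.18 on the log2 scale. With these 2 scalings Parp3 was at 0.43 and 0.38, Parp1 at -0.59 and -0.64 and Parp2 at -0.38 and -0.43, of which none was called. With the longer form of the GAAA repeat, 0 members in place of 1 held a match. The log2 difference in the ratio of Dtx3l to Parp9 lay between -0.11 (without LPS replicate 3) and 0.01, a shift above the control SD of 0.05 and under the LPS SD of 0.14, and that of Parp14 to Parp1 between 4.05 and 4.35. The lowest count of a member in a library was 274, and how much of the spread is counting error was not tested.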
